A study of Mus musculus with 16 samples.

Results

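Transcripts of 9 cytokines that spleen stroma and other niche cells are known to make were followed: Kitl, Csf1, Il34, Il7, Il15, Il33, Flt3l, Tslp and Thpo. They were chosen by symbol, and all 9 were found among the 54838 gene identifiers of the count table. The RNA came from spleens of C57BL/6 mice, with 8 size-selected and 8 whole spleen samples that carry the same 8 numbers, 4 male and 4 female in each group. No transgene, treatment or age is given for either group, and the labels do not state that each number is a separate animal, so p-values measure the spread between these samples. The size-selected group, which the labels source as spleen glia, holds what stayed on a strainer after spleens were digested with enzymes that included Dispase II and red cells were lysed. The labels repeat this preparation for whole spleen and describe no other one.

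Niche cytokines are secreted or membrane-held proteins by which stromal and endothelial cells keep blood cells alive and guide their growth. Stem cell factor (Kitl) acts on progenitors and mast cells, Csf1 and Il34 share the macrophage receptor Csf1r, and Il7 and Il15 maintain lymphocytes. In the spleen, reticular fibroblasts and endothelial cells are known sources of several of these factors, while thrombopoietin (Thpo) is made mainly by liver.

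Deposited totals ran from 13119955 to 19944381 estimated counts in the size-selected samples and from 12153763 to 16282420 in whole spleen. Marker lists were read beside the labels, in a comparison where edgeR called 37.5% of all genes tested higher and 30.4% lower. Of 9 glial markers, 7 passed the count filter and all 7 rose, with a median log2 fold change of 6.45, while Sox10 and Foxd3 were under the filter. The summed glial level was 75.2 to 562 CPM (counts scaled to the library total) in the size-selected samples and 1.48 to 9.29 in whole spleen. Of the other stromal lists, 3 had higher sums there: the 9 fibroblast markers all rose (1070 to 3780 CPM summed, against 5.01 to 59.7), as did 6 of 6 smooth muscle markers (829 to 3790, against 10.3 to 73.8) and 8 of 8 endothelial markers (730 to 1910, against 82.1 to 219). The 5 mesothelial markers (19.5 to 173, against 0.381 to 3.02) and 5 markers of splenic mesenchyme (52.7 to 237, against 0.717 to 6.11) also all rose, with sums in the range of the glial list or under it. The lowest whole spleen sums of the glial, fibroblast, mesothelial and mesenchyme lists are too low for every marker to meet the count filter there. Such markers were tested because of their size-selected level, so the calls in these lists are a description. Of the 6 B cell markers 5 fell, and their sum was 880 to 3210 CPM against 5240 to 6470. Of 10 genes known to respond to tissue dissociation, 8 rose (4340 to 8550 CPM summed, against 1810 to 2760) and 1 fell, a call lost with the restored counts described for Csf1 below. RNA of all these stromal types was thus present, and the part of each in the cytokine differences was not tested. In such bulk samples, more cells of a type and more RNA per cell cannot be told apart.

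Promoter sequences are shown for 3 cytokines that differed in response: Csf1 and Il33, which rose steeply, and Flt3l, which was not called. Each is the 250 bases before the start of the gene on its own strand, from RefSeq on GRCm38.p6. Csf1 lies at chr3:107760470-107760719 (minus strand), Flt3l at chr7:45136433-45136682 (minus strand) and Il33 at chr19:29924863-29925112 (plus strand). Capitals mark matches, on either strand, to one of 6 motifs: the TATA box (TATAAA), the GC box (GGGCGG), the CCAAT box (CCAAT), AP-1 (TGANTCA), STAT (TTCNNNGAA) and NF-kB (GGG, any 2 bases, then TTTCC).
Csf1: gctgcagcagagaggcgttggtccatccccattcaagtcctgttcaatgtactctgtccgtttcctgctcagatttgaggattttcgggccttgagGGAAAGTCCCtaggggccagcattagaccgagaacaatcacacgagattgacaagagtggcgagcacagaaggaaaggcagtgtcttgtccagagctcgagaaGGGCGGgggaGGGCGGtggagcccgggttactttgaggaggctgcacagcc
Flt3l: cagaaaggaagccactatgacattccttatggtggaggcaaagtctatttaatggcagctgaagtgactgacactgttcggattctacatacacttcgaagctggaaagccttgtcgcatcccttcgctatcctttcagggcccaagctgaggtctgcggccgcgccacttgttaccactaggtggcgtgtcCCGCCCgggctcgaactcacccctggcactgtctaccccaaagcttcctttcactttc
Il33: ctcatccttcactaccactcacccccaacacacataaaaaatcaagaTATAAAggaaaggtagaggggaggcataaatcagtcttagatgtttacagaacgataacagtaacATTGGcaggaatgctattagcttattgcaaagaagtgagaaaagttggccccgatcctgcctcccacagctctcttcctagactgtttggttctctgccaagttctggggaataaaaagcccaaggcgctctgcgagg

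The Csf1 window held GGGCGG at 51 to 46 and at 41 to 36 bases before the start, and GGAAAGTCCC, a reverse-strand match to the NF-kB letters, at 154 to 145 bases. That last motif occurs in 1.41% of 32851 promoter windows of the same length, and the GC box in 32.7%. The Flt3l window held 1 reverse-strand GC box at 58 to 53 bases before the start. In the Il33 window TATAAA stood at 203 to 198 bases, a motif found in 12.4% of windows, and a reverse-strand CCAAT, found in 33.8%, at 138 to 134 bases. No match was found in these 3 windows to the AP-1 letters (6.75% of windows) or the STAT letters (7.02%). The matches do not overlap each other, and a match describes letters only. GC content was 56.4% in the Csf1 window, 53.6% in that of Flt3l and 45.2% in that of Il33, with a median of 52.4% over all windows.

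The first comparison asked how each cytokine transcript differed between the size-selected cells and whole spleen. Kitl, Csf1, Il34, Il7, Il33 and Il15 rose, none fell, and Flt3l was not called. Of the 9 cytokines, 7 passed the count filter, and 6 of these 7 were called higher by edgeR at an adjusted p under 0.05. Over all genes, 37.5% of 14510 tested were called higher and 30.4% lower, so a rise as such was common. A fold change above 4 on the log2 scale was rarer, at 8.15% of genes tested, and 5 cytokines exceeded it. The 7 tested cytokines had a median log2 fold change of 4.80, where the median of all genes was 0.05 and the 90th percentile 3.49. Il7, Il34 and Il33 did not reach the minimum in every whole spleen sample, as this filter needs, so they were tested here because of their size-selected level, their folds are given below without a p, and the count is a description of those that passed. In 6 of the 7 the groups did not overlap, with the size-selected group above, as in 23.3% of genes tested. With the number as a block the same 6 were called, among 69.4% of genes called and 38.1% called higher.

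**Figure D1:**
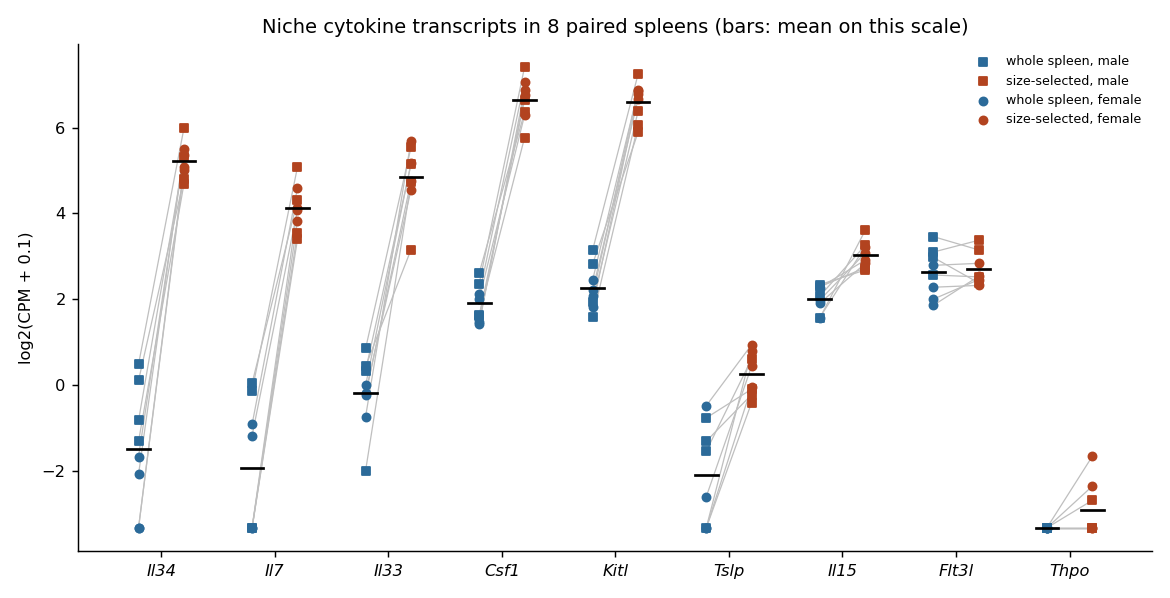
Level of each cytokine transcript on the log2(CPM + 0.1) scale in whole spleen (blue) and size-selected samples (red), with squares for males, circles for females, grey lines joining samples of the same number and black bars at the mean. Every size-selected sample lies above every whole spleen sample for Il34, Il7, Il33, Csf1, Kitl, Tslp and Il15, while the Flt3l samples overlap and Thpo is at or near 0.

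Kitl, the ligand of the receptor Kit, lies on chromosome 10 from 100015630 to 100100416 (GRCm38, GENCODE M21, plus strand). Its level in the size-selected samples was lowest at 59.2, had a median of 106 and reached 152 CPM, and in whole spleen it was lowest at 2.89, with a median of 4.34 and a maximum of 8.80. The lowest size-selected sample thus stood well above the highest whole spleen sample. The means were 101 ± 30.2 and 4.99 ± 2.00 CPM (SD, n = 8 each), and the fitted difference was 20.2-fold (log2 fold change 4.34, SE 0.25, edgeR adjusted p = 1.46e-10). The paired log2 difference was 4.32 ± 0.58 (SD, n = 8 pairs) and positive in 8 of 8 pairs.

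Csf1, which drives survival and growth of macrophages, lies on chromosome 3 from 107741048 to 107760469 (minus strand). Size-selected samples ranged from 54.3 through a median of 103 to 170 CPM, and whole spleen from 2.57 through 3.46 to 6.02 CPM, with no overlap. The means were 105 ± 36.1 and 3.80 ± 1.24 CPM (SD, n = 8 each), and the fitted difference was 27.8-fold (log2 fold change 4.80, SE 0.25, edgeR adjusted p = 5.81e-11). Csf1 is the 1 cytokine here whose deposited size-selected values are 2-decimal numbers multiplied by a constant, and dividing the constants out gave a log2 fold change of 5.04. The direction held in 8 of 8 pairs.

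Il34, the other ligand of Csf1r, lies on chromosome 8 from 110741829 to 110805924 (minus strand) and overlaps 2 antisense genes, Gm15894 and Gm15895. Whether counting used strand is not stated, so reads of those genes could not be separated. Its size-selected level was 25.7 CPM at the lowest, 36.6 at the median and 63.2 at the highest. In whole spleen the lowest was 0, the median 0.260 and the highest 1.30 CPM, and 2 of 8 samples had no count. Il34 therefore showed a scarce whole spleen level, with 45 counts over 8 samples, beside 4907 in the size-selected group. The log2 fold change was 6.53 (SE 0.46), and 8 of 8 pairs were higher. Without whole spleen sample 427, which held 16 of the 45 counts, the log2 fold change was 6.99.

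Il7, needed by developing and resting lymphocytes, lies on chromosome 3 from 7569994 to 7613760 (minus strand) and overlaps the antisense gene Gm16685. Size-selected samples held 10.5 to 33.8 CPM with a median of 17.1, and whole spleen 0 to 0.932 CPM with a median of 0.172. Of the 8 whole spleen samples 4 had no count of Il7, and none came near the lowest size-selected sample. The log2 fold change was 5.90 (SE 0.56), with 8 of 8 pairs higher, and limma-voom gave 6.89.

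Il33, a nuclear cytokine of stromal cells that is released on damage, lies on chromosome 19 from 29925114 to 29960718 (plus strand). Its level ran from 8.83 through a median of 31.1 to 51.5 CPM in size-selected samples and from 0.152 through 0.841 to 1.71 CPM in whole spleen. The groups did not overlap, and size-selected sample 435 was the low one. The means of 31.9 ± 13.6 and 0.903 ± 0.480 CPM (SD, n = 8 each) lay 5.14 apart on the log2 scale (SE 0.38), with 8 of 8 pairs higher. Il33 passed the filter of this comparison through the size-selected samples, since whole spleen samples 408 and 436 held 2 and 7 counts.

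Il15, which sustains NK cells and memory T cells, showed the smallest of the called differences. The gene lies on chromosome 8 from 82331632 to 82403222 (minus strand). Its level was 6.32 to 12.1 CPM (median 7.89) in size-selected samples and 2.85 to 4.97 CPM (median 3.98) in whole spleen, so the ranges lay close without touching. The means were 8.31 ± 1.92 and 3.98 ± 0.831 CPM (SD, n = 8 each), and the fitted difference was 2.09-fold (log2 fold change 1.06, SE 0.18, edgeR adjusted p = 3.54e-05). All 8 pairs were higher.

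Flt3l, the growth factor of dendritic cells, lies on chromosome 7 from 45129788 to 45136432 (minus strand) and overlaps Gm45713, a protein-coding gene on the same strand, so its estimated counts are uncertain. Size-selected samples held 4.91 to 10.3 CPM with a median of 5.68, and whole spleen 3.53 to 10.9 CPM with a median of 6.32. These ranges overlapped almost fully. The log2 fold change was 0.03 (SE 0.24, 95% interval -0.44 to 0.49, edgeR adjusted p = 0.925), and 5 of 8 pairs were higher. The sign turned to -0.03 with the restored counts, and no setting called the gene.

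Tslp, an epithelial and stromal cytokine, lies on chromosome 18 from 32815383 to 32819797 (plus strand) and overlaps 4930455D15Rik. It stayed under the filter with 10 to 34 counts in each size-selected sample and 0 to 9 in whole spleen, and these counts did not overlap. The levels were 1.16 ± 0.438 and 0.215 ± 0.241 CPM (SD, n = 8 each), higher in 8 of 8 pairs. In the fit without a filter, where 25.3% of 28235 genes were called higher, its log2 fold change was 2.32 (SE 0.61, edgeR adjusted p = 0.00332).

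Thpo lies on chromosome 16 from 20724454 to 20734511 (minus strand) and overlaps Chrd on the other strand. It had 4, 2 and 1 counts in size-selected samples 436, 460 and 435 and none in the other 5, and no count in any whole spleen sample, which allows up to 3 counts per library from counting error alone. No fold is given at this depth, although the fit without a filter called it from those 7 counts (edgeR adjusted p = 0.0444). The 5 hepatocyte markers, read because liver makes Thpo, were at 0 in whole spleen and summed to 0 to 0.414 CPM in the size-selected samples.

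The authors' deposited table of genes enriched in the size-selected group holds 5 of the 9 cytokines. The log2 fold changes in the authors' deposited table were 5.97 for Il34, 5.67 for Il7, 4.90 for both Il33 and Csf1, and 4.42 for Kitl.

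Some samples were high or low for most cytokines. Size-selected sample 427 was the highest for 6 of the 7 tested cytokines (Kitl, Il7, Il15, Il34, Csf1 and Flt3l), and sample 435 the lowest for 5 (Kitl, Il7, Il15, Il33 and Csf1). Sample 427 also had the highest endothelial (1910 CPM), smooth muscle (3790 CPM), macrophage (6900 CPM) and dissociation (8550 CPM) sums of its group. Its B cell sum (880 CPM) was the lowest, and its mesothelial sum (61.5 CPM) ranked 5 of 8. Sample 435 ranked 7 of 8 for the endothelial sum (895 CPM) and the fibroblast sum (1200 CPM), and 2 of 8 for the B cell sum (3190 CPM). Sample 408, with the lowest endothelial (730 CPM) and fibroblast (1070 CPM) sums and the highest B cell sum (3210 CPM), was the lowest for Il34 only. In whole spleen, sample 427 was the highest for Kitl, Il33 and Il34 and also for the fibroblast sum (59.7 CPM) and the endothelial sum (219 CPM). Its smooth muscle (73.8 CPM), glial (9.29 CPM), mesothelial (3.02 CPM) and splenic mesenchyme (6.11 CPM) sums were the highest of that group as well. The part of these differences in cell content in the cytokine values was not tested.

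Levels of different genes were compared per kilobase of exon. In the size-selected samples Csf1 (20 ± 6.83 CPM per kilobase, SD, n = 8), Il34 (19.7 ± 6.11) and Kitl (17.0 ± 5.11) led, followed by Il33 (11 ± 4.70). Csf1 was above Il34 in 4 of 8 samples, Il34 above Kitl in 6 of 8 and Csf1 above Kitl in 7 of 8, and the ranges of all 3 overlapped. With the restored counts Csf1 had 23.1 ± 7.61 CPM per kilobase and was above Il34 in 6 of 8 samples. Il33 lay under Kitl in 8 of 8 samples and above Il15 in 8 of 8. Il15 (3.67 ± 0.848) and Il7 (3.27 ± 1.34) were close neighbours, with Il15 the higher in 6 of 8 samples, and Flt3l (1.70 ± 0.504) and Tslp (0.870 ± 0.329) came last before Thpo.

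Whole spleen had another order of levels. Il15 (1.76 ± 0.368 CPM per kilobase, SD, n = 8) and Flt3l (1.68 ± 0.647) led there and did not separate, with Il15 higher in 6 of 8 samples. Flt3l was above Kitl (0.845 ± 0.338) in 8 of 8 samples, and Kitl above Csf1 (0.720 ± 0.235) in 6 of 8. Il33 (0.313 ± 0.166), Il34 (0.217 ± 0.243), Tslp (0.162 ± 0.181) and Il7 (0.0556 ± 0.0681) followed, and their order changed from sample to sample.

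**Figure D2:**
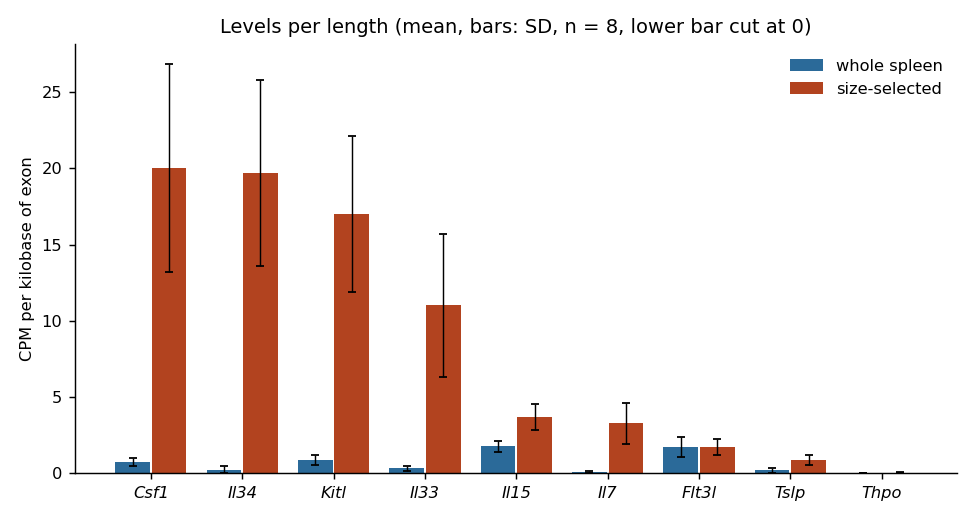
Mean level of each cytokine transcript in CPM per kilobase of exon in whole spleen (blue) and size-selected samples (red), with SD bars over 8 samples that are cut at 0. Csf1, Il34 and Kitl stand at 17.0 to 20 in the size-selected group and under 1 in whole spleen, whereas the pair of Flt3l bars is level at 1.70 and 1.68.

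Because Il34 and Csf1 share a receptor, their balance was compared as the log2 ratio of Il34 to Csf1 CPM, each with 0.1 added. The ratio ran from -1.88 to -0.79 in the size-selected samples and from -4.79 to -1.53 in whole spleen, and 8 of 8 pairs were higher in the size-selected group. The groups met only at whole spleen samples 435 and 427, at -1.53 and -1.88. The means were -1.43 ± 0.38 and -3.39 ± 1.28 (SD, n = 8 each), a difference of 1.96. Exact sign flips of the 8 paired differences gave p = 0.00781. The exact two-sided permutation test, which like those below ignores the pairing, gave p = 0.0014. Whole spleen samples held 0 to 16 counts of Il34, so the size of the difference depends on the value added. With 0.5 added in place of 0.1 the difference was 0.90 (exact permutation p = 0.00793), and with the restored counts it was 1.65 (exact permutation p = 0.00575). In summed counts Il34 amounted to 35.9% of Csf1 in the size-selected group (4907 of 13681) and 10.7% in whole spleen (45 of 419).

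**Figure D3:**
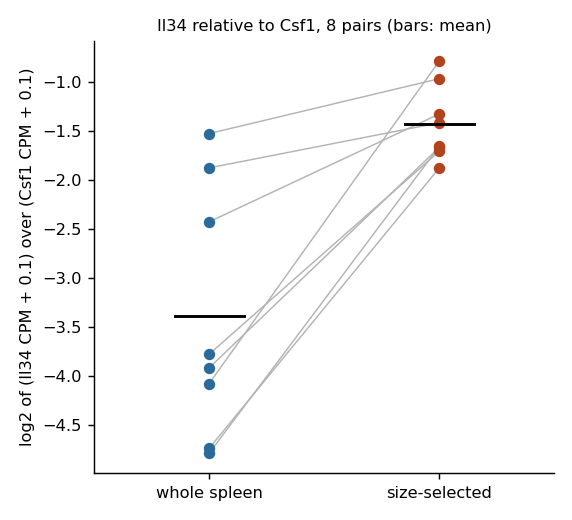
Log2 ratio of Il34 to Csf1 transcript level (CPM + 0.1 each) in whole spleen and size-selected samples, with grey lines joining the 8 pairs and black bars at the means of -3.39 and -1.43. Each line rises from left to right, and the whole spleen points spread from -4.79 to -1.53.

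Receptor chains of these cytokines moved in both directions. All 12 that were listed passed the filter, 6 were called higher and 5 lower, and the median log2 fold change was -0.02, against 67.9% of all genes called in either direction. Receptors of Csf1 and Il34 rose. Csf1r, the macrophage receptor, had 878 to 2140 CPM (median 1290) in size-selected samples and 287 to 700 CPM (median 334) in whole spleen, without overlap (log2 fold change 1.92, SE 0.22, edgeR adjusted p = 3.54e-07). Over the same samples 3 of 8 macrophage markers rose and none fell, a share equal to the 37.5% of all genes called higher. With the number as a block 4 of 8 rose, beside 38.1% of all genes. The part of macrophage content in the Csf1r difference was not tested. Ptprz1, a second receptor of Il34, had 2.04 to 20 CPM in size-selected samples (median 6.47) and was at 0 in 7 of 8 whole spleen samples, with 4 counts in sample 427 (log2 fold change 7.32, SE 0.74). Ptprz1 passed the filter through the size-selected samples alone, so its place among the 6 called higher is a description, and the size of its fold rests on 1 library. Sdc1, a proteoglycan that also binds Il34, rose by 0.37 (SE 0.13, edgeR adjusted p = 0.0212), and its call was lost without number 435 (0.31, adjusted p = 0.0558), without number 447 (0.32, adjusted p = 0.0667) and without a filter (0.31, adjusted p = 0.0634).

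Il7r, Il2rg, Il2rb and Crlf2, chains through which Il7, Il15 and Tslp signal, fell. Il7r, the Il7 receptor chain that Tslp also uses, was 8.06 to 63.5 CPM (median 28.6) in size-selected samples and 79.3 to 150 CPM (median 113) in whole spleen (log2 fold change -1.75, SE 0.28, edgeR adjusted p = 2.49e-05). No pair was higher, and the groups did not overlap, as for 11.6% of genes in this direction. With the restored counts the log2 fold change of Il7r was -1.5 (edgeR adjusted p = 0.000137). Il2rg, the shared gamma chain, fell by 1.06 (SE 0.11, edgeR adjusted p = 6.31e-08), or by 0.67 with the restored counts, and overlaps Gm20489 on its strand. Il2rb, the beta chain of the Il15 receptor, fell by 1.11 (SE 0.27, edgeR adjusted p = 1.52e-03), and Crlf2, the chain particular to Tslp, by 0.50 (SE 0.10, adjusted p = 2.39e-04). Of the T cell markers 5 of 6 fell, and of the NK cell markers 5 of 5, beside 30.4% of all genes called lower, and the part of these cells was not tested. In contrast Il15ra, the chain that presents Il15 to neighbouring cells, rose from 1.63 to 5.25 CPM (median 2.91) in whole spleen to 7.04 to 18.2 CPM (median 14.2), in 8 of 8 pairs (log2 fold change 2.15, SE 0.23, edgeR adjusted p = 1.30e-07).

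Of the remaining receptors, Kit and Il1rap rose, Flt3 fell and Il1rl1 was not called. Il1rl1, the specific Il33 receptor, was 2.60 ± 0.697 CPM in size-selected samples and 3.46 ± 1.31 in whole spleen (SD, n = 8 each), and the log2 difference was -0.41 (SE 0.26, 95% interval -0.92 to 0.10, edgeR adjusted p = 0.167). Its partner chain Il1rap rose by 0.97 (SE 0.16, edgeR adjusted p = 3.30e-05). Kit rose from 27.6 ± 8.78 to 39.3 ± 7.44 CPM with overlapping groups (log2 fold change 0.51, SE 0.18, edgeR adjusted p = 0.0167), a call lost without number 447 (0.42, adjusted p = 0.0632) or number 460 (0.40, adjusted p = 0.0681). With the restored counts the log2 fold change of Kit was 0.76 (edgeR adjusted p = 0.00122). Flt3, the receptor of Flt3l, fell by 0.89 (SE 0.20, edgeR adjusted p = 5.99e-04).

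**Figure D4:**
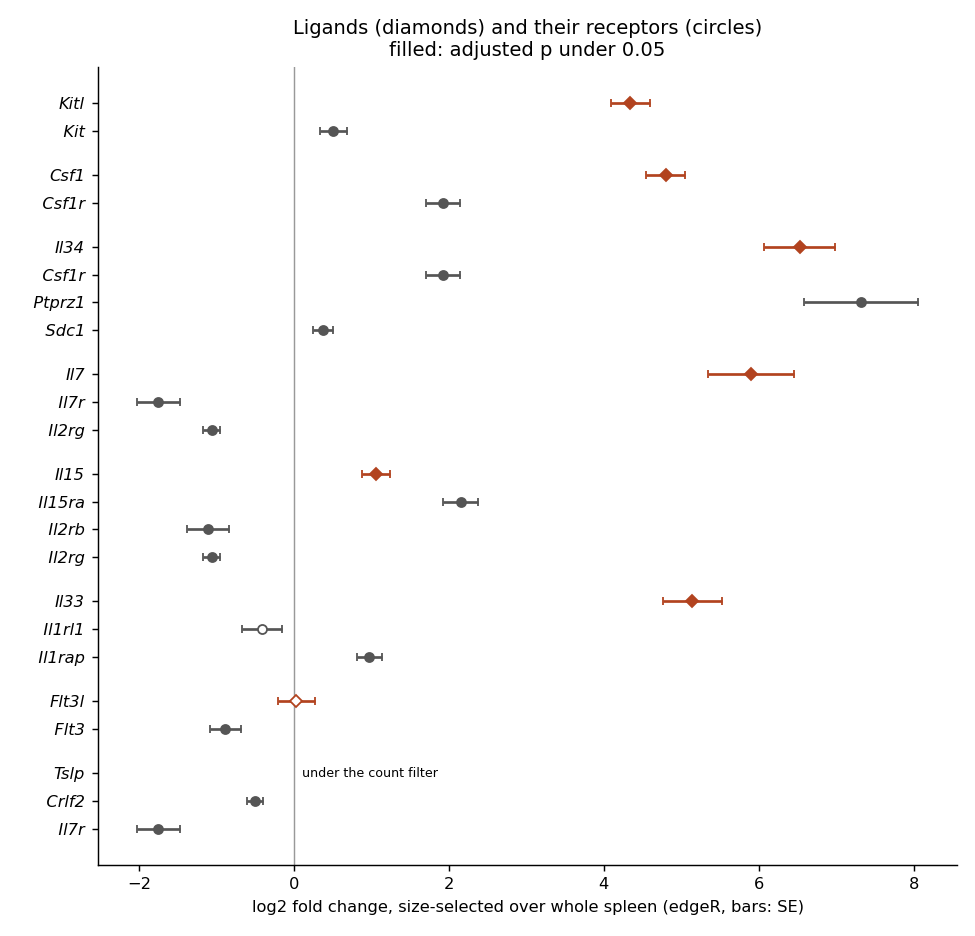
Log2 fold change, size-selected over whole spleen, of 7 cytokines (diamonds) and of receptor chains below each (circles), with bars of 1 SE. The line at 0 marks no difference, and filled markers have an edgeR adjusted p under 0.05. Tslp, under the count filter, has a row with its receptor chains but no point of its own. Il7, Il34, Il33 and Ptprz1 were tested because of their size-selected level, so their fill is a description. Il7 stands at 5.90 over Il7r at -1.75, Il33 at 5.14 over Il1rl1 at -0.41, and Il34 at 6.53 over Ptprz1 at 7.32; chains that serve several ligands appear more than once.

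Of 20 signalling and feedback genes downstream of these receptors, 9 rose and 3 fell, with a median log2 fold change of 0.24, beside 37.5% of all genes called higher and 30.4% lower. The largest rises were in feedback genes that cytokines induce, namely Socs3 (2.54, SE 0.18, edgeR adjusted p = 8.18e-10), Socs2 (2.45, SE 0.20, adjusted p = 4.56e-09) and Cish (1.17, SE 0.11, adjusted p = 1.94e-08). The genes that fell were Stat5a (by 0.93, SE 0.25, edgeR adjusted p = 2.90e-03), Pim1 (by 0.53, adjusted p = 0.0132) and Stat3 (by 0.39, adjusted p = 0.0313), and the Stat3 call was lost with the restored counts (adjusted p = 0.435). Of 7 proteases that shed or cleave such ligands, 6 rose, with a median log2 fold change of 0.94 over the list and 37.5% of all genes called higher, and Mmp9 was not called, although it was with the restored counts (edgeR adjusted p = 0.0431). Among them were the matrix proteases Mmp2 (5.63, SE 0.44, edgeR adjusted p = 2.78e-09) and Mmp14 (3.93, SE 0.28, adjusted p = 1.18e-09), and the sheddases Adam10 (0.94, SE 0.14) and Adam17 (0.93, SE 0.13).

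Of 18 further cytokines that act on blood cells, 11 passed the filter, 7 of these rose and 2 fell, with a median log2 fold change of 1.19, where 37.5% of all genes were called higher and 30.4% lower. Lif had 18.3 ± 9.01 CPM against 0.537 ± 0.400 (SD, n = 8 each; log2 fold change 5.08, SE 0.53), and with 60 counts over the whole spleen samples it was tested because of its size-selected level. Il6 had 197 ± 121 CPM against 7.87 ± 3.04 (log2 fold change 4.65, SE 0.35, edgeR adjusted p = 2.33e-09). Csf3, the granulocyte factor, rose by 3.66 (SE 0.45, edgeR adjusted p = 9.90e-07) and the vessel and stem cell factor Angpt1 by 2.67 (SE 0.29, adjusted p = 1.85e-07). Osm and Clcf1, relatives of Il6, fell by 0.71 and 0.66 (edgeR adjusted p = 2.07e-03 and 2.22e-03). Dissociation genes rose in the same samples, and their part in the levels of Lif, Il6 and Csf3 was not tested.

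Within each group, the samples' levels of a cytokine were set beside those of 9296 genes whose log2 CPM averaged 3 or more, as Pearson r over 16 samples after the group means were removed. The values describe samples that share their library, depth and cell content, and those printed are among the highest over all these genes. For Il34 and Il7 the whole spleen values rest on at most 16 counts per sample. Kitl was most like Angptl2 (0.90), Rapgef5 (0.89) and Fstl1 (0.89), and Il34 most like Pald1 (0.95), Podxl (0.93) and Ly6c1 (0.92). Csf1 followed Dll1 (0.93), Flt1 (0.86) and Strn3 (0.84), and Il7 followed Ntn4 (0.90), Nlrx1 (0.85) and Ids (0.84). For Il33 the genes were Gm2564 and Gab1 (0.84 each), for Il15 Pdgfb, Ufc1 and Sod1 (0.88 each), and for Flt3l Usp2 (0.89), Klf4 (0.88) and Clec4a3 (0.87). Over the 8 size-selected samples alone the order for Il34 turned, with r of 0.94 for Ly6c1, 0.87 for Podxl and 0.85 for Pald1, and r was 0.65 for Ids beside Il7, 0.68 for Klf4 beside Flt3l and 0.72 for Gab1 beside Il33.

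No cytokine was called by edgeR for a difference between males and females in the fraction effect, in whole spleen or in the size-selected samples, and DESeq2 and limma-voom called none either. Over all genes, the interaction of sex and fraction called 0 of 15760, sex in whole spleen 0.194% and sex in the size-selected samples 0.0397%. At an unadjusted p under 0.05, 1 of 8 cytokines tested passed for the interaction (4.72% of all genes), 1 of 5 in whole spleen (16.1%) and 0 of 8 in the size-selected samples (4.18%). These counts moved on leaving out 1 number: Kitl joined Il34 for the interaction and passed in the size-selected samples without number 427, and Tslp joined Il34 for the interaction without number 445. In whole spleen Il34 joined Flt3l at that unadjusted threshold when no count filter was used.

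Il34 was the cytokine that passed for the interaction. Its whole spleen level was 0.466, 0.305, 1.30 and 0.980 CPM in the 4 males and 0.215, 0.137, 0 and 0 CPM in the 4 females. Every male thus lay above every female in whole spleen, on 2 to 16 counts where any were seen. In the size-selected samples males had 39.1 ± 17.2 and females 38 ± 6.07 CPM of Il34 (SD, n = 4 each). The fraction effect differed by 3.01 on the log2 scale (SE 0.81, edgeR adjusted p = 1), an estimate that rests on 3, 2, 0 and 0 counts in the female whole spleen samples. The endothelial sum in whole spleen was 99.3 to 219 CPM in males and 82.1 to 112 in females, and its part was not tested. Flt3l passed in whole spleen, with 8.25 ± 2.10 CPM in males and 4.76 ± 1.47 in females (SD, n = 4 each; female minus male log2 difference -0.80, SE 0.28, edgeR unadjusted p = 0.0135, adjusted p = 0.195), and without number 435 no cytokine passed there at the unadjusted threshold.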

How the data were processed

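RNA-seq of 8 size-selected and 8 whole spleen samples was used. Reads were processed with Trim Galore, STAR, RSEM and DESeq on mm10, per the submitters' processing notes, which give no versions. The authors deposited estimated counts per gene. In the size-selected columns the values of 3898 genes (52.9% of counts) are 2-decimal numbers multiplied by constants, which was found from the values. Dividing these out gave restored counts, an alternative. The authors' deposited comparison table holds a mean signal, log2 fold changes, a test score, p-values, TPM and FPKM per the file headers. Only its log2 values are printed.

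Estimated counts were rounded, filtered (filterByExpr, minimum count 10), scaled (TMM) and tested with edgeR 4.0.16 (quasi-likelihood, Benjamini-Hochberg over all genes, threshold 0.05) in R 4.3.3. CPM uses TMM-scaled totals. Lengths and coordinates come from GENCODE M21 (GRCm38, 1-based), which held 54723 of the 54838 identifiers. Of the 9 cytokines 5 had a RefSeq promoter entry, and 3 are shown, whose RefSeq and GENCODE starts lie within 2 bases and whose window meets no annotated gene. On simulated counts with 200 genes changed by 2 (log2), the fraction fit recovered 96% among 14378 genes and the interaction fit 65% among 14503. Same-numbered samples deviated together in 8 of 8 pairs (r 0.12 to 0.375), so the numbers pair the samples. Alternatives were other scalings, filters, limma-voom (limma 3.58.1), DESeq2 1.42.0, a block for the number, sex as a covariate and leaving out each number. Leaving out whole spleen 427 alone was chosen after seeing the data. The cytokines and gene lists were chosen with earlier results of these data known. All 9 cytokines and any listed gene may be named, with up to 3 genes most alike to each tested cytokine. Some items under this rule are not reported here.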

Additional observations from a re-analysis of the deposited data

Results flagged for a closer look

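Among the 16 sets of 8 values screened, of which chance would single out about 1 in 20, 1 held a sample far from the others. Il33 in size-selected sample 435 was at 3.16 on the log2 CPM scale, and the other 7 samples of its group were at 4.56 to 5.69. The gap to the nearest sample was 0.552 of the whole range. Without number 435 and without each other number, the log2 fold change of Il33 was between 4.92 and 5.36.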

How the results depend on the processing

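Of 140 alternative estimates for single cytokines, 136 kept their direction and their side of the threshold. The other 4 were of Flt3l, whose uncalled value turned negative: -0.03 without a count filter, -0.03 with the restored counts, -0.02 without number 427 and -0.04 without number 460. Leaving out each number gave log2 fold changes of 4.25 to 4.50 for Kitl, 4.71 to 4.97 for Csf1, 6.35 to 6.91 for Il34, 5.71 to 6.36 for Il7, -0.04 to 0.11 for Flt3l, 0.91 to 1.16 for Il15 and 2.03 to 2.66 for Tslp, and 6 to 7 cytokines called, the added one being Tslp without number 407 and, likewise, without whole spleen 427 alone. Without a filter 8 were called, with Tslp and Thpo. Receptors called numbered 9 to 11 on leaving out each number. With the number as a replicate block the log2 fold changes were 4.35 for Kitl, 4.77 for Csf1, 6.62 for Il34, 6.08 for Il7, 5.06 for Il33 and 1.05 for Il15, 69.4% of genes were called, and no cytokine's call changed. For the ratio of Il34 to Csf1 the paired form gave an exact sign-flip p of 0.00781, the smallest that 8 pairs can give, and leaving out each number gave differences of 1.77 to 2.18. Scaling by library totals moved the median log2 fold change of all genes from 0.05 to 0.18. Depth limits Il34, Il7, Tslp and Thpo in whole spleen, where samples hold at most 16 counts of each.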
